A study of Saccharomyces cerevisiae with 12 samples.

Results

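The small open reading frame (ORF) probes of a budding yeast array are described here. They are the probes whose ID carries one shared prefix, YBOX_ONO, in the raw intensity table, and 119 of the 6958 probes that are neither controls nor empty spots were taken. The prefix is held by 133 probes, and the 14 with a locus on chromosome II were left out. Each of the 119 has 1 spot and its own locus, and the loci lie on 15 chromosomes. The locus names of 118 carry a letter after a hyphen, which yeast nomenclature gives to genes added between those already numbered, and the exception is YCL012C. In the RefSeq annotation (assembly R64), 109 of the loci were present, of which 23 have a gene name and 86 have none, and 10 were not matched.

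Small ORFs were long missing from gene catalogues because a short reading frame is hard to tell from chance. Those with a known product encode small subunits, assembly factors and regulators, such as the cytochrome c oxidase assembly factor Coa2 and the V-ATPase subunit Vma9. Many of the others are known as a locus name and a predicted reading frame only.

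Total RNA, extracted with hot phenol and turned into cDNA, was labelled with Cy5 and measured on 12 Phalanx OneArray arrays, 3 in each of 4 groups. Wild type (WT) cells and cells lacking SGS1 (sgs1Δ) each gave a control and a tangeretin group. Treated cells had 30 µM tangeretin, a methoxylated flavone of citrus peel, for 4 h at 30 °C in medium without tryptophan, and control cells had the solvent alone, with DMSO at 0.2% in all 4 groups. The study compared how the strains responded to the compound. Sgs1 is the RecQ family DNA helicase of yeast. WT was strain YCL1071 and sgs1Δ was strain YCL1098, in which SGS1 was replaced by kanMX4. Both strains are MATα, with the alleles his3Δ1, leu2Δ0, met15Δ0 and ura3Δ0 and with TRP1 replaced by HPH, and both carry the plasmid pRS414-GAL1-HO-TRP1, on which the GAL1 promoter drives the HO endonuclease gene. Each group is a single strain. No label states that arrays of the same group stem from different cultures, so the p-values may measure technical spread only.

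The SGS1 probe was detected on all 6 WT arrays and on none of the 6 sgs1Δ arrays. The 4 marker genes of α cells and the 5 of a cells were all detected on all 12 arrays, so these markers do not set the labelled mating type apart. The summed raw intensity of the α markers was 2568 to 3452 on the WT arrays and 26344 to 52256 on the sgs1Δ arrays, and that of the a markers was 5983 to 7808 and 12116 to 24379. Their part in the strain differences below was not tested. The arrays were not equally bright. The median raw intensity of all probes ran from 530 to 814.5 on the WT control arrays, from 780 to 956 with WT tangeretin, from 928 to 1344 with sgs1Δ control and from 1367.5 to 1530 with sgs1Δ tangeretin. Brightness therefore moves with strain and treatment, and its part in the results below was tested only as far as a fit with brightness as a term allows. No source used here states whether the labelling kept the strand.

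A probe was taken as detected where its scanner flag was 0. On all 12 arrays, 67 of the 119 small ORF probes (56.3%) were detected, against 6058 of all 6958 probes (87.1%) and 213 of the 267 other probes outside chromosome II whose locus has a letter suffix (79.8%). On no array were 11 small ORF probes (9.24%) detected, against 3.02% of all probes. These were YAR035C-A, YHR050W-A, YIL134C-A, YIR021W-A, YJL133C-A (named DPI8), YKL096C-B, YKL183C-A, YLL006W-A, YLR264C-A, YOL038C-A and YPR108W-A. DPI8, for example, read between -2 and 6 on the 12 arrays, where a negative value means a spot darker than the background already subtracted. The other 41 were detected on 1 to 11 arrays.

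Detection went with a gene name. Of the 23 named loci, 19 were detected on all 12 arrays, against 43 of the 86 RefSeq loci without a name and 5 of the 10 loci not matched in RefSeq. The 4 named exceptions were DPI8, NBL1, DGR1 and SLO1. NBL1, a subunit of the chromosomal passenger complex that corrects kinetochore attachment, was detected on the 3 sgs1Δ tangeretin arrays alone, at 30, 44 and 29. DGR1, a gene named for resistance to 2-deoxyglucose, was detected on 9 arrays and read between 10 and 43. SLO1, whose product binds the Arl3 GTPase, was detected on 11 arrays and read between 28 and 135.

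The number detected differed between the groups. On all 3 arrays of a group, 67 small ORF probes were detected in WT control, 85 in WT tangeretin, 85 in sgs1Δ control and 96 in sgs1Δ tangeretin. These are 56.3%, 71.4%, 71.4% and 80.7% of the 119. Of all probes, 87.3%, 91.7%, 91.9% and 94.1% were detected in the same order of groups. Of the other suffix probes it was 80.1%, 85%, 86.1% and 89.1%, so these sets also had their lowest share in WT control and their highest in sgs1Δ tangeretin. Per array, 72, 77 and 90 small ORF probes were detected in WT control, 88, 98 and 94 in WT tangeretin, 89, 89 and 90 in sgs1Δ control, and 102, 100 and 101 in sgs1Δ tangeretin. The sgs1Δ tangeretin arrays were above all others, and the third WT control array, the brightest of its group, lay among the WT tangeretin and sgs1Δ control arrays. The groups with more probes detected are also the brighter ones, so detection and array brightness cannot be told apart. With another criterion, an intensity above the 95th percentile of the array's empty spots, 101 small ORF probes were detected on all 3 WT control arrays. The counts of the other groups by this criterion are not given here, so whether the groups differ under it is not shown.

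**Figure D1:**
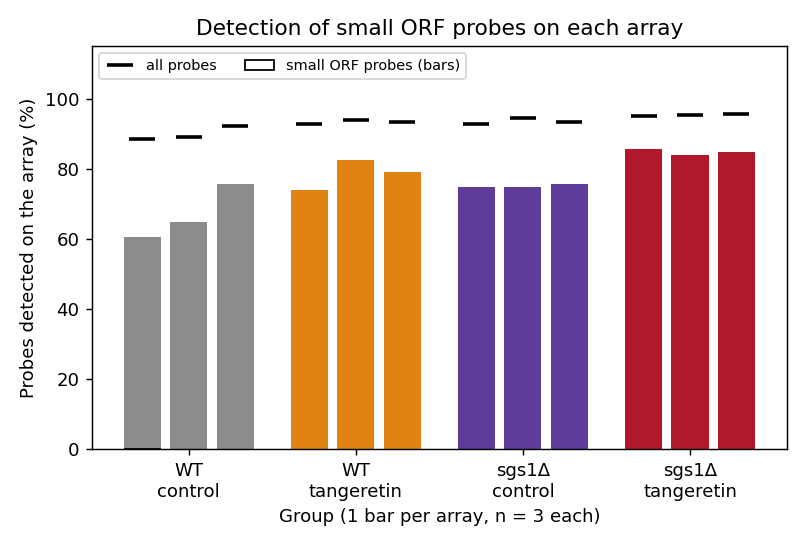
Percent of the 119 small ORF probes (bars) and of all 6958 probes (black marks) detected on each of the 12 arrays, 3 bars per group. The small ORF bars lie under the marks on every array, from 60.5% on the first WT control array to 85.71% on the first sgs1Δ tangeretin array.

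Among the dim members, 9 were detected on all 3 arrays of one group and on none of another. The same count was not made over all probes, so it cannot be read as a trait of small ORF probes. Of these 9, the 6 with the widest gap in mean raw intensity were YNL042W-B, YOR376W-A, YER175W-A, YNL146C-A, YOL013W-B and NBL1, a measure of width chosen after the values were seen. YNL042W-B read 10, 10 and 15 in WT control, 10, 11 and 5 in WT tangeretin, 20, 31 and 27 in sgs1Δ control, and 52, 63 and 60 in sgs1Δ tangeretin. All 6 sgs1Δ arrays of this probe lay above all 6 WT arrays, which were not well above background. RefSeq places YNCN0009W, an RNA gene, on the same strand over this ORF, so the probe may read either transcript.

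YOR376W-A went in mean raw intensity from 13.3 in WT control to 50 in sgs1Δ tangeretin, and YER175W-A went from 6.0 to 36.7 between the same groups. YNL146C-A read 6, 6 and 12 in WT control and 42, 43 and 29 in sgs1Δ tangeretin. One of its WT tangeretin arrays had a flag of 0 at an intensity of -4, the one member value marked as detected below the empty-spot limit of its array. YOL013W-B was detected on the sgs1Δ tangeretin arrays alone by its small ORF probe, while a second probe that the file names for this locus was detected on all 12. The ID of that second probe carries another suffix, A, and which locus it reads was not settled. YDR169C-A, detected on 2 arrays and so not tested, read 360 on one WT tangeretin array and between 4 and 31 on the remaining 11; it was singled out after its values were seen.

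The signal of the small ORF probes was low on the whole. The median over the 119 probes of the mean raw intensity was 41.0 in WT control, 62.0 in WT tangeretin, 65.3 in sgs1Δ control and 94.3 in sgs1Δ tangeretin, where all probes had medians of 632, 859, 1078 and 1455. Under 100 lay 72, 65, 66 and 61 of the 119 in the same order of groups, and over 1000 lay 16, 19, 22 and 25. Raw medians of all 4 groups thus order as the brightness of the arrays does. Intensities of different probes depend on how well each probe binds, so their order is one of signal and not of transcript number.

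**Figure D2:**
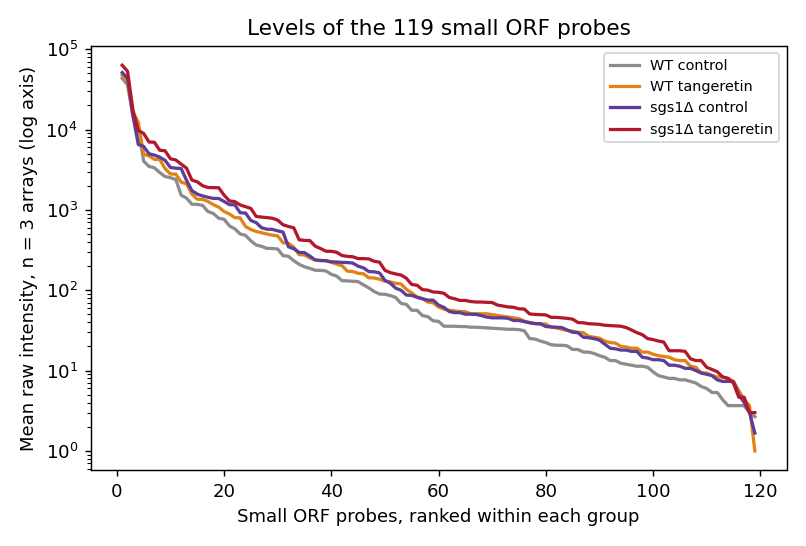
Mean raw intensity (log axis, n = 3 arrays) of the 119 small ORF probes, ranked within each group from brightest to dimmest, 1 line per group; means under 1 are drawn at 1. In each group 61 to 72 probes lie under 100. The sgs1Δ tangeretin line is the highest and the WT control line the lowest over most ranks.

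Among the members detected on all 12 arrays, the 6 highest by mean normalised value were SPO24, YDR524C-B, KSH1, COA2, YHR175W-A and YCR024C-B. SPO24, a gene linked to sporulation, read between 40431 and 65148, and on one sgs1Δ tangeretin array it passed 65000, near the top value of 65478 on these arrays, so a rise there could be understated. KSH1, an essential gene of the secretory pathway, read between 12719 and 18835. The 6 lowest were YOL019W-A, YHR086W-A, YOR381W-A, YPL152W-A, YHR022C-A and YAL063C-A, of which YAL063C-A read between 27 and 43.

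For the comparisons, raw intensities were floored at 0, raised by 50, quantile normalised and put on the log2 scale. Probes with flag 0 on at least 3 of the 12 arrays were fitted with limma, and p-values were adjusted by Benjamini-Hochberg over all 6657 probes tested. A probe was called at an adjusted p under 0.05. Of the 119 small ORF probes, 100 were tested, 11 were never detected and 8 were detected on 1 or 2 arrays only. Changes below are log2 differences of these normalised values with their standard error (SE), n = 3 arrays per group. The offset of 50 shrinks the changes of dim probes. Since normalisation removes array brightness, a probe whose raw intensity stayed level on brighter arrays comes out as lower.

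The first question was how the strains differ in control medium. COA2, LSO1 and MIN3 were lower in sgs1Δ, and YDR003W-A, PCC1 and DPA10 were higher. Of the 100 tested small ORF probes, 46 were called, 11 higher and 35 lower in sgs1Δ, where 48.5% of all tested probes were called, 21.4% higher and 27.1% lower. In this fit the share called is near that of all probes, and the median change was -0.11 against -0.03 for all probes. Of the 249 tested probes outside chromosome II for other loci with a letter suffix, 14.1% were higher and 35.7% lower, with a median of -0.10. Of all 6134 other tested probes outside chromosome II, 17.5% were higher and 28.7% lower, with a median of -0.06. The lean of the small ORF probes to lower values is thus near that of the other suffix loci. The arrays of the strains did not overlap for 45 of the 100, 13 higher and 32 lower, against 51.5% of all probes, 21.9% higher and 29.6% lower. Of the 35 lower calls, 26 had a higher mean raw intensity in sgs1Δ, 8 a lower one and 1 the same. Among all probes called lower, 70.3% had a higher raw mean. With 75th percentile scaling in place of quantile normalisation, 17 were higher and 20 lower, and with cyclic loess 11 were higher and 22 lower. Of all probes, 52.5% and 47.1% were called in these fits, so the members' share was lower there. With array brightness as a term in the fit, 4 calls remained, those of COA2, YER078W-A, LSO1 and DPA10, where 12.5% of all probes were called. Leaving out the second WT control array left 29 calls, and the share of all probes called in that fit is not given here.

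COA2, whose product acts in the assembly of cytochrome c oxidase in mitochondria, had the largest change among the members. Its raw intensity was 10340, 10484 and 10356 in WT control, 13440, 14603 and 9074 in WT tangeretin, 5318, 5410 and 4252 in sgs1Δ control, and 7148, 7556 and 6287 in sgs1Δ tangeretin. Every sgs1Δ array lay below every WT array, although the sgs1Δ arrays were brighter as a whole. In control medium the normalised value fell by 1.57 on the log2 scale (SE 0.16, adjusted p = 6.5e-06), to 0.337 times the WT level. Under all 26 alternatives that tested it the call held, with changes from -1.71 to -1.12. GUP2, which RefSeq places next to COA2 on the opposite strand, was also lower, by a log2 change of -0.80 (SE 0.11, adjusted p = 7.3e-05). NAB3, on its other side and on the same strand as COA2, was lower too, at -0.51 (SE 0.17, adjusted p = 0.026).

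YER078W-A, a locus without a gene name, read 110, 116 and 124 in WT control and 77, 94 and 74 in sgs1Δ control. With tangeretin it read 140, 144 and 145 in WT and 84, 100 and 99 in sgs1Δ. The strains did not overlap in raw intensity in either medium. The log2 change in control medium was -0.98 (SE 0.12, adjusted p = 1.7e-05). Its neighbours ICP55 and YER079W were not called in this comparison.

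LSO1, the relative of the ribosome-associated protein gene LSO2, had normalised log2 values of 9.36, 9.37 and 9.10 in WT control, 8.71, 8.74 and 8.82 in WT tangeretin, 8.43, 8.49 and 8.23 in sgs1Δ control, and 8.27, 8.17 and 8.27 in sgs1Δ tangeretin. The WT control arrays were above all others, and the WT tangeretin arrays above all sgs1Δ arrays. The log2 change in control medium was -0.89 (SE 0.10, adjusted p = 9.3e-06), and the call held under all 26 alternatives. The mean raw intensity was nearly level, at 352 in WT control and 328.7 in sgs1Δ control, while the arrays grew brighter. LSO2 itself was not called here, at -0.11 (SE 0.10).

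MIN3 had normalised values of 10.89, 10.92 and 10.61 in WT control and 10.24, 9.91 and 10.09 in sgs1Δ control. The groups did not overlap, and the log2 change was -0.72 (SE 0.12, adjusted p = 0.00022). Its mean raw intensity was 1173 and 1162. KSH1 fell by 0.40 on the log2 scale (SE 0.11, adjusted p = 0.0093), with arrays of the strains that overlapped. Other falls among the 8 largest were those of TAR1 (-0.80), YJL136W-A (-0.69), YMR315W-A (-0.69) and YGR146C-A (-0.64). YMR315W-A turned to 0.13 with array brightness in the fit.

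The largest rise in control medium was that of YDR003W-A, which read 243, 300 and 694 in WT control and 1324, 1519 and 1462 in sgs1Δ control. Its WT arrays spread widely but lay under all sgs1Δ arrays. The log2 change was 1.03 (SE 0.23, adjusted p = 0.0026), or 2.04-fold. Its neighbours on the same strand, RCR2 and RAD57, changed by -0.23 and -0.11 and were not called.

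PCC1, a subunit of the KEOPS complex that modifies transfer RNAs, read 1118, 1214 and 1872 in WT control and 3194, 4235 and 2693 in sgs1Δ control. Its strains did not overlap, and the log2 change was 0.60 (SE 0.09, adjusted p = 0.00012). YCR024C-B changed by 0.74 (SE 0.17, adjusted p = 0.0035), and PMP1, its neighbour on the same strand, which encodes a small regulator of the plasma membrane proton pump, changed by 0.67 (SE 0.16, adjusted p = 0.0030). SLM5, on its other side and also on the same strand, was lower, at -0.41 (SE 0.12, adjusted p = 0.010). Whether the probe of YCR024C-B reads a transcript shared with PMP1 was not tested. EGO2, part of a vacuolar complex that activates the kinase TORC1, rose by 0.42 (SE 0.09, adjusted p = 0.0021). VMA9 was just past the threshold at 0.31 (SE 0.12, adjusted p = 0.04998). The remaining rises among the 8 largest were those of DPA10 (0.47), YPL038W-A (0.46), MCO10 (0.41) and YLR361C-A (0.41). Of the rises of these 8, DPA10 kept its call with brightness in the fit, and those of YDR003W-A, YCR024C-B, PCC1, YPL038W-A, EGO2, MCO10 and YLR361C-A did not.

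**Figure D3:**
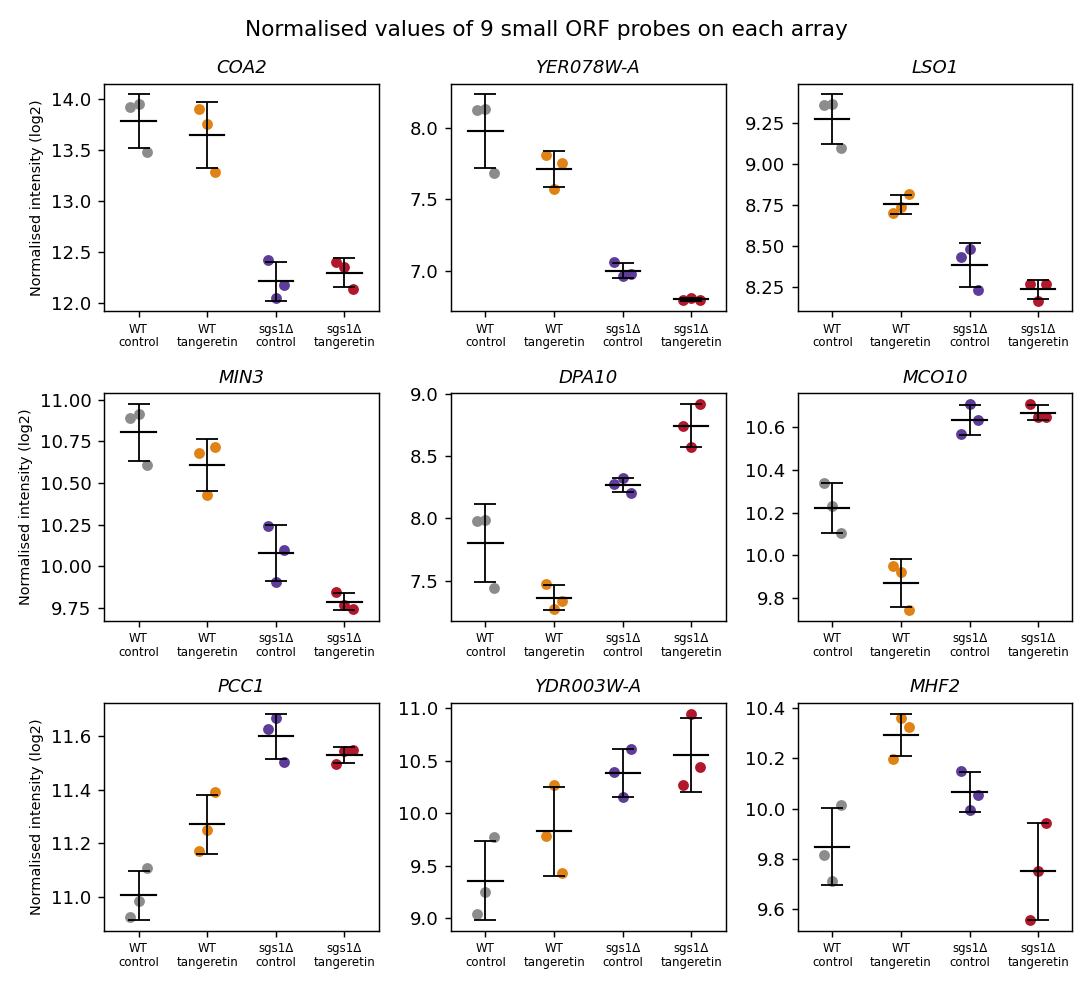
Normalised log2 intensity of 9 small ORF probes on each of the 12 arrays; points are arrays, the long bar is the group mean and the error bar 1 SD (n = 3), and each panel has its own axis, which does not start at 0. COA2, YER078W-A, LSO1 and MIN3 are lower on all sgs1Δ arrays than on WT arrays of the same medium, MCO10 and PCC1 are higher, and MHF2 is highest in WT tangeretin.

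The same strain difference was measured under tangeretin, on arrays that the first comparison does not share. COA2, YER078W-A and MIN3 had the largest falls, and DPA10, MCO10 and YDR003W-A the largest rises. Of the 100 tested members, 36 were called, 11 higher and 25 lower, where 45.6% of all probes were called, 20.2% higher and 25.4% lower. The median was -0.10 against -0.04 for all probes, and the arrays of the strains did not overlap for 49 of the 100, against 57.6% of all probes. Of the other suffix probes, 9.64% were higher and 30.1% lower, with a median of -0.08, and of all other probes outside chromosome II 16.4% were higher and 27% lower, with a median of -0.07. Of the 25 lower calls, 19 had a higher mean raw intensity in sgs1Δ, as had 77.2% of all probes called lower. With 75th percentile scaling 15 were higher and 20 lower, and with array brightness in the fit 9 were called, 4 higher and 5 lower. Of all probes, 46.9% and 17.7% were called in these fits.

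DPA10 had the largest rise of this comparison. It read 94, 101 and 94 in WT control, 102, 109 and 97 in WT tangeretin, 253, 386 and 243 in sgs1Δ control, and 571, 581 and 713 in sgs1Δ tangeretin. The 6 WT arrays lay within a narrow range, and each sgs1Δ group lay above them without overlap. Under tangeretin the log2 change between the strains was 1.38 (SE 0.14, adjusted p = 3.6e-06), or 2.61-fold, and it held under all 25 alternatives that tested it, from 1.29 to 1.75. CDA1, one of the genes beside it, was lower in sgs1Δ, at -0.50 (SE 0.13, adjusted p = 0.0072), and CDA2 on its other side was not tested.

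MCO10, whose product associates with the mitochondrial ATP synthase, read 721, 676 and 898 in WT control, 770, 926 and 690 in WT tangeretin, 1497, 2237 and 1486 in sgs1Δ control, and 2262, 2454 and 2335 in sgs1Δ tangeretin. All sgs1Δ arrays lay above all WT arrays. The log2 change was 0.41 (SE 0.09, adjusted p = 0.0021) in control medium and 0.80 (SE 0.09, adjusted p = 1.1e-05) under tangeretin. Its neighbours HSP10 and SFM1 were not called in either medium.

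YNL042W-B, with the raw values given above, rose by 0.61 (SE 0.08, adjusted p = 3.0e-05 by limma) under tangeretin. It passed the detection filter through its sgs1Δ arrays alone, so this p-value is no independent support for a strain difference. No WT array detected it. Raising its WT tangeretin arrays to the lowest detected value of each array left the change at 0.61. The 1.53-fold rise in sgs1Δ on the offset scale is therefore the estimate itself and not a lower bound. YNL146C-A rose by 0.45 (SE 0.10, adjusted p = 0.0020). Its WT arrays would not have passed the filter by themselves, so the same limit holds for its p-value. YPL038W-A (0.54), YAL037C-A (0.46) and YHR175W-A (0.41) completed the 8 largest rises with YDR003W-A (0.72). The rise of YAL037C-A went to -0.01 with array brightness in the fit, and that of YDR003W-A lost its call without the first or the third WT tangeretin array or the second sgs1Δ tangeretin array, where it ranged over all its alternatives from 0.27 to 0.95.

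COA2 fell by 1.34 on the log2 scale under tangeretin (SE 0.16, adjusted p = 2.3e-05), YER078W-A by 0.91 (SE 0.12, adjusted p = 3.0e-05) and MIN3 by 0.82 (SE 0.12, adjusted p = 7.1e-05). The other 5 of the 8 largest falls were those of YJL047C-A (-0.61), YMR315W-A (-0.58), YMR230W-A (-0.58), YLR342W-A (-0.58) and YGR146C-A (-0.57). YMR315W-A turned to 0.22 with array brightness in the fit, as it did in control medium. YJL047C-A lies on the same strand as the small nucleolar RNA gene SNR60, which overlaps it in RefSeq. MHF2 and LSO2 were called lower under tangeretin, at -0.54 (SE 0.11, adjusted p = 0.0013) and -0.29 (SE 0.10, adjusted p = 0.033), and neither was called in control medium. The difference between the media was called for MHF2, as given below, and not for LSO2, at -0.18 (SE 0.14, adjusted p = 0.57).

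Between both strain comparisons, 27 members were called in both and all 27 in the same direction, 5 higher and 22 lower. They are 58.7% of the 46 called in control medium and 75% of the 36 called under tangeretin. Of all probes, 2204 were called in both, 2185 of them in the same direction, which is 67.6% of those called in control medium and 71.9% of those called under tangeretin, so the members' overlap is near that of all probes. Over the 100 tested members the 2 sets of changes had a Pearson correlation of 0.797, against 0.852 over all probes, across probes that share their arrays. The 5 higher in both were DPA10, MCO10, YDR003W-A, PCC1 and YPL038W-A. The interaction, which tests whether the strain difference itself differs between media, was called for DPA10 and MHF2 only, as given below.

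**Figure D4:**
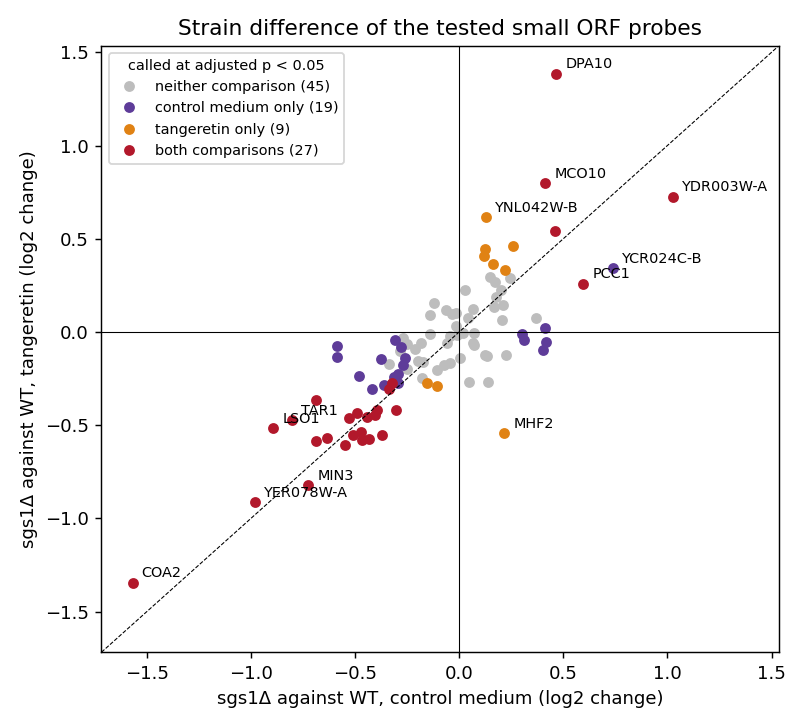
Log2 change of sgs1Δ against WT in control medium (x axis) and under tangeretin (y axis) for the 100 tested small ORF probes, coloured by the comparison in which they were called; the dashed line marks equal changes. COA2 lies at the lower left, DPA10 well above the dashed line, and MHF2 below 0 under tangeretin alone.

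Several members lie in the stretch of chromosome XII that holds the ribosomal DNA repeats, a group put together after the values were seen. Of 7 tested there, 5 were called lower in sgs1Δ in control medium and 3 under tangeretin, with a median of -0.34 and -0.24, where 27.1% and 25.4% of all probes were called lower. With 75th percentile scaling 2 of the 7 were called lower in each medium and 1 higher under tangeretin, and with array brightness in the fit none was called in either. TAR1, which lies antisense to the 25S ribosomal RNA gene, had a log2 change of -0.80 (SE 0.11, adjusted p = 7.9e-05) and -0.47 (SE 0.11, adjusted p = 0.0038). RRT15 changed by -0.47 and -0.53, and YLR154W-E by -0.44 and -0.46, all 4 called. YLR154W-B (-0.31) and YLR154C-G (-0.30) were called in control medium alone, and YLR154W-F and YLR157W-A in neither, with the interaction called for none of the 7. TAR1 read 1411, 1585 and 1570 in WT control and 1318, 1678 and 1160 in sgs1Δ control, so its raw arrays overlapped between the strains. Another probe that the file names TAR1 was lower as well, at -0.50 (SE 0.11, adjusted p = 0.0024) and -1.0 (SE 0.11, adjusted p = 9.1e-06). Its ID points to the locus YLR154W-A, while the TAR1 member has YLR154W-C, so it may not read the same gene. Of 15 tested probes for nuclear ribosomal RNA, 2 were higher and 3 lower in control medium, and 1 was higher and 4 lower under tangeretin. The locus is present in many copies and its genes overlap on both strands, so which transcript these probes read is uncertain.

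The second question was how each strain responded to tangeretin. In WT, MHF2 was higher and LSO1 and MCO10 were lower with tangeretin. These 3 were the calls among the 100 tested members, where 3.82% of all tested probes were called, 2.18% higher and 1.64% lower. The median change was -0.07 against -0.03 for all probes. Of the 100 members, 25 had an unadjusted limma p under 0.05, against 1859 of all 6657 tested probes. The groups did not overlap for 19 of the 100, against 24.7% of all probes. The count depended on single arrays: it was 29 without the third WT control array, the brightest of its group, and 0 without the first or the second WT control array, or without the second or the third WT tangeretin array. The shares of all probes called in these fits are not given here, so the counts show instability and no trait of the members. The number of members called also changed with the processing. With 75th percentile scaling 6 members were called, 5 higher and 1 lower, and with brightness in the fit 0. Of all probes, 6.23% were called with 75th percentile scaling and 0.105% with brightness.

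MHF2, a histone-fold protein that works with the helicase Mph1 in DNA repair, read 472, 440 and 836 in WT control, 920, 1269 and 1058 in WT tangeretin, 1113, 1368 and 987 in sgs1Δ control, and 1026, 1329 and 1445 in sgs1Δ tangeretin. The WT tangeretin arrays lay above the WT control arrays, and the sgs1Δ groups overlapped in raw intensity. In WT the normalised log2 change with tangeretin was 0.44 (SE 0.11, adjusted p = 0.045). Its neighbour DHH1, on the same strand, changed by -0.19 (SE 0.12) and was not called.

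LSO1 changed by -0.52 with tangeretin in WT (SE 0.10, adjusted p = 0.015). Its normalised arrays, given above, did not overlap between the media, while its mean raw intensity was 352 and 344. MCO10 changed by -0.35 (SE 0.09, adjusted p = 0.047), with a mean raw intensity of 765 and 795. Of 26 alternatives, the LSO1 call held in 20, the MHF2 call in 14 and the MCO10 call in 9.

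Of the uncalled members, YCR024C-B had the largest positive value in WT, at 0.57 (SE 0.17, adjusted p = 0.078). Its neighbour PMP1 had 0.59 (SE 0.16, adjusted p = 0.052). YDR003W-A had 0.47 (SE 0.23, adjusted p = 0.20) and CMI7 0.46 (SE 0.13, adjusted p = 0.067). The lowest member values apart from the calls included DPA10 at -0.44 (SE 0.14, adjusted p = 0.079), YJL136W-A at -0.43 (SE 0.12, adjusted p = 0.069) and YMR315W-A at -0.36 (SE 0.18, adjusted p = 0.19).

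In sgs1Δ, limma called 0 of the 100 tested members with tangeretin, where 1.41% of all probes were called, 0.706% in each direction. An unadjusted p under 0.05 was found for 14 of the 100 members and for 1458 of all 6657 tested probes. The groups did not overlap for 22 of the 100, 7 higher and 15 lower, against 25.1% of all probes, 9.21% higher and 15.9% lower. With 75th percentile scaling 1 member was called, where 1.25% of all probes were, and with array weights 16, where 24% of all probes were. Without the second sgs1Δ control array, the brightest of its group, 3 members were called, with the share of all probes not given here. The largest positive values were those of DPA10 at 0.48 (SE 0.14, adjusted p = 0.087), YJL077W-B at 0.28 (SE 0.11, adjusted p = 0.18) and MCO6 at 0.25 (SE 0.12, adjusted p = 0.23). The lowest were YCL012C at -0.39 (SE 0.11, adjusted p = 0.089), YDR182W-A at -0.34 (SE 0.12, adjusted p = 0.13) and MHF2 at -0.32 (SE 0.11, adjusted p = 0.13).

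**Figure D5:**
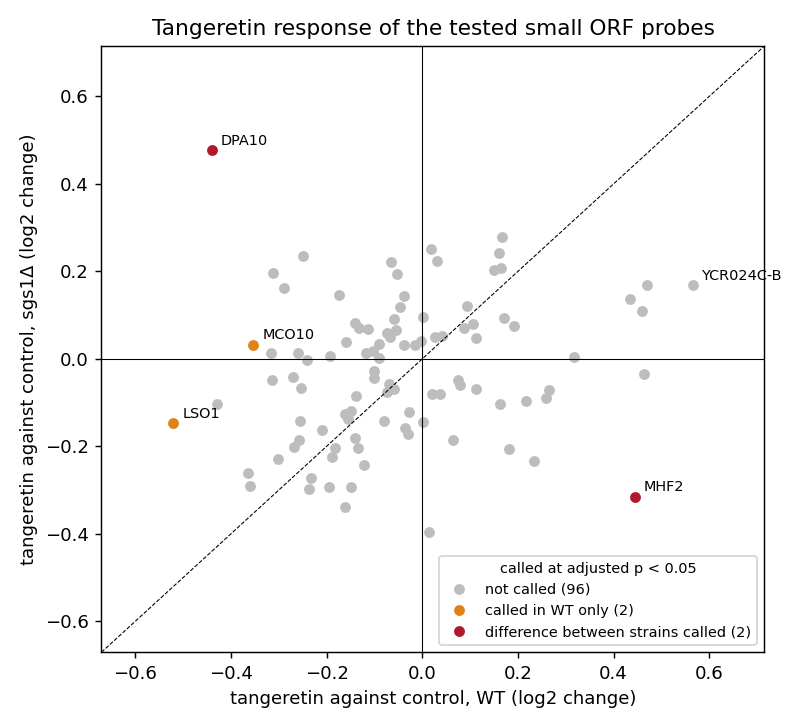
Log2 change with tangeretin in WT (x axis) and in sgs1Δ (y axis) for the 100 tested small ORF probes; the dashed line marks equal changes. Most points lie within 0.4 of 0 in both strains, and DPA10 (-0.44 in WT, 0.48 in sgs1Δ) and MHF2 (0.44 in WT, -0.32 in sgs1Δ) lie far from the dashed line.

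The interaction subtracts the WT response to tangeretin from that of sgs1Δ. It was called for 2 of the 100 members, where 1.17% of all probes were called. For DPA10 it was 0.92 (SE 0.19, adjusted p = 0.040), from -0.44 in WT and 0.48 in sgs1Δ, neither called by itself. In raw intensity DPA10 went from a mean of 96.3 ± 4.04 (SD, n = 3) to 102.7 ± 6.03 with tangeretin in WT and from 294 ± 79.8 to 621.7 ± 79.3 in sgs1Δ. For MHF2 the interaction was -0.76 (SE 0.16, adjusted p = 0.037), from 0.44 in WT and -0.32 in sgs1Δ. In raw intensity its sgs1Δ groups overlapped, as given above. The DPA10 call held in 12 of 24 alternatives and the MHF2 call in 14 of 25, with the losses mostly where 1 array was left out. Uncalled members with the next largest values were YML054C-A at 0.51 (SE 0.19, adjusted p = 0.21), YNL042W-B at 0.49 (SE 0.11, adjusted p = 0.051), CMI7 at -0.50 (SE 0.19, adjusted p = 0.23) and EGO2 at -0.47 (SE 0.13, adjusted p = 0.090).

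By function, the 4 mitochondrial members with textbook roles (MCO6, CMC4, MCO10 and COA2) were detected on all 12 arrays and split in both strain comparisons, with MCO10 higher, COA2 lower and MCO6 and CMC4 not called. CMC4, a small protein of the space between the mitochondrial membranes, had 0.25 (SE 0.11) in control medium and 0.29 (SE 0.11) under tangeretin. Of both members of the secretory pathway and membranes, KSH1 was lower in both media, and VMA9 was higher in control medium and not called under tangeretin, at -0.04. Of the 5 members on the list for the nucleus, RNA, chromosomes and ribosome (MHF2, LSO2, NBL1, LSO1 and YSF3), 1 was called lower in control medium and 3 under tangeretin. Of all probes, 27.1% and 25.4% were called lower. PCC1, which acts on transfer RNAs but is not on that list, was called higher in both media. YSF3, a subunit of the SF3b splicing complex, was called in neither, at -0.18 (SE 0.10) and -0.25 (SE 0.10). By annotation, 6 of the 22 tested named members were higher and 6 lower in control medium, against 5 higher and 25 lower of 69 without a name and 0 higher and 4 lower of 9 not matched in RefSeq, where 21.4% of all probes were higher and 27.1% lower. Under tangeretin the counts were 3 higher and 8 lower of 22, 8 and 15 of 69, and 0 and 2 of 9, where 20.2% of all probes were higher and 25.4% lower. The difference between these classes was not tested.

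For 31 members called in control medium a neighbour on the same strand was tested, in 46 pairs of a member and a neighbouring probe. In 16 of these pairs the neighbour was called, and in 7 it was called in the same direction, where 48.5% of all probes were called. Under tangeretin the neighbour was called in 13 of 36 such pairs, 7 in the same direction, where 45.6% of all probes were called. For neighbours on the opposite strand it was called in 11 of 27 pairs in control medium, 7 in the same direction, and in 10 of 26 under tangeretin, 6 in the same direction. The small ORF probe of YOL013W-B, detected on 3 arrays, changed by 0.03 in control medium. The second probe that the file names for this locus, with the other suffix in its ID, changed by -0.45 (SE 0.11, adjusted p = 0.0046).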

How the data were processed

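Raw intensities of single arrays and scanner flags (a unit of another kind) were read from the table the authors deposited. Per the file headers the intensity is raw, and its empty spots had a median of 0 to 1, so background was already subtracted. The authors' deposited value table holds log2 values normalised between arrays, with a median near 10 on each array. Its method, the scanner software and the genome build are not given in the sources used here, and it served as an alternative. Of 9800 spots, 514 control and 2158 empty spots were left out, and spots of a probe were averaged.

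Values were floored at 0, raised by 50, quantile normalised and put on the log2 scale with limma 3.58.1 in R 4.3.3. lmFit and eBayes were fitted over all 4 groups without covariates (8 residual and 13.59 total degrees of freedom). Tests were two-sided, with a call at an adjusted p under 0.05, and the number of arrays, 3 per group, limits the precision. The fit was tested on simulated data. Replicate arrays correlated at 0.9921 to 0.997, and no pair was identical.

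Named members were, in each comparison, the 8 largest called changes each way or all where fewer, the 3 largest uncalled changes where fewer than 3 were called, the 6 highest and lowest levels, undetected members, members of textbook lists and neighbours of called members. The members and lists were chosen with earlier results of these data known. Members shown with values on every array were chosen after the values were seen. For YNL042W-B, each array of the undetected group was also set to its own value or the lowest detected value of that array, whichever is higher. RefSeq R64 gave names and neighbours only. Alternatives changed the offset, normalisation, filter, starting values, probe choice, covariates, variance model and arrays.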

Additional observations from a re-analysis of the deposited data

Results flagged for a closer look

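The tangeretin response of MHF2 and DPA10 differed between the strains by the interaction test of limma. For MHF2 the response in sgs1Δ minus that in WT was -0.76 on the log2 scale (SE 0.16, adjusted p = 0.037). The normalised MHF2 values were 9.82, 9.71 and 10.02 in WT control, 10.20, 10.36 and 10.32 in WT tangeretin, 10.15, 9.99 and 10.05 in sgs1Δ control, and 9.56, 9.75 and 9.94 in sgs1Δ tangeretin, so the media did not overlap in either strain and lay in opposite order. This holds for the normalised values only, since the sgs1Δ groups overlapped in raw intensity. The adjusted p passed 0.05 without 8 of the 12 arrays left out one at a time, and the interaction ranged from -0.86 to -0.67 over all alternatives.

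For DPA10 the difference in response was 0.92 (SE 0.19, adjusted p = 0.040). Its normalised values were 7.98, 7.99 and 7.44 in WT control, 7.47, 7.27 and 7.34 in WT tangeretin, 8.27, 8.32 and 8.21 in sgs1Δ control, and 8.74, 8.57 and 8.92 in sgs1Δ tangeretin. The third WT control array overlapped the WT tangeretin arrays, and the sgs1Δ media did not overlap. The value ranged from 0.82 to 1.16 over all alternatives. With arrays left out one at a time, the DPA10 call was kept only without the third WT control or the second sgs1Δ control array. Both calls held with array brightness as a term in the fit. Neither held with the authors' deposited log2 values or without the floor and offset, and the MHF2 call was also lost with 75th percentile scaling.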

How the results depend on the processing

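The 37 named changes were computed 943 times under the alternatives: 847 kept direction and call, 93 kept direction without the call, and 3 turned, all with array brightness in the fit (YMR315W-A to 0.13 in control medium and 0.22 under tangeretin, YAL037C-A to -0.0145 under tangeretin). Members called for tangeretin in WT, 3 in the fit reported, numbered 6 with 75th percentile scaling, 6 with the replicate block, 38 with array weights, and 0 with only the groups of the comparison or with brightness, and 0 to 29 when 1 array was left out. For tangeretin in sgs1Δ, 0 became 1 after scaling to the 75th percentile, 16 by array weights, and 0 to 3 without 1 array. For the strains in control medium, 46 became 18 without the dimmest 25% of probes, which left 34 members tested, 4 with brightness, and 29 to 51 without 1 array. Under tangeretin, 36 became 16, 9, and 27 to 39 by the same steps. The interaction's 2 became 4 with an offset of 16, 1 with 75th percentile scaling, 1 without the dimmest probes, 4 with brightness, 18 with array weights, and 0 to 4 without 1 array. The cause of these shifts was not tested, apart from fewer members being tested without the dimmest probes. Array weights called 42.5% of all probes for tangeretin in WT. For the fits with 1 array left out, the shares of all probes are not given here. Without the dimmest probes, 48.9% of all probes were called in control medium and 49.6% under tangeretin, and with brightness 12.5% and 17.7%. For the interaction the shares of all probes were 1.05% with an offset of 16, 0.856% with 75th percentile scaling and 1.2% without the dimmest probes. They were 3.15% with brightness and 23.2% with array weights. The share of member calls that were higher in sgs1Δ in control medium was 23.9% in the fit reported, where 44.1% of all calls were higher. It went to 45.9% with 75th percentile scaling, against 53.9% of all calls, and to 33.3% with cyclic loess, against 50.7%. Without the dimmest probes it was 33.3%, against 44%, and with array weights 34.9%, against 45.1%. The members' share lay below that of all calls in each of these fits.

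Deviations of arrays with the same replicate number correlated from -0.41 to 0.514. Arrays with different numbers were not compared in this way, so whether the numbers pair the samples was not settled. The replicate block gave 6, 0, 48, 36 and 2 calls in the 5 comparisons, where 7.96%, 1.23%, 48.8%, 46.7% and 1.73% of all probes were called. Detection on all 3 WT control arrays went from 67 to 101 by the empty-spot limit, with the other groups not given here. When 1 array was left out, detection in the remaining ones ranged from 67 to 76 in WT control, 86 to 91 in WT tangeretin, 85 to 87 in sgs1Δ control and 97 to 98 in sgs1Δ tangeretin. Low signal limits the dim members most: of 119, only 67 were detected on every array, and changes near the offset are understated.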
